A study of Daphnia magna with 12 samples.

Results

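A set of 102 array probes was raised strongly in Daphnia magna both by copper oxide (CuO) nanoparticles and by the dissolved copper salt CuCl2. The members were picked from the deposited log ratios by a fixed rule: the mean of the 4 CuO arrays and the mean of the 4 CuCl2 arrays each had to lie at least 1.5 above the mean of the 4 blank arrays. On a log2 scale 1.5 is a rise of nearly 3-fold, and 102 of 4247 probes (2.4%) met it. After quantile normalization of the arrays 53 probes met it, all of them among the 102. The rise against blank is therefore what chose these probes, and it is described below with nothing drawn from any test of it. Independent of the choice, or not fixed by it, are the comparison of the copper forms with each other, the difference between dye orientations, and the way the probes moved from array to array.

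Copper is an essential trace metal, a cofactor of cytochrome c oxidase in respiration and of copper-zinc superoxide dismutase in antioxidant defence, and an excess of it binds protein thiols and drives the formation of reactive oxygen species. Animals meet such an excess with metal-binding proteins such as metallothioneins, small cysteine-rich proteins whose genes are known to be induced by copper in Daphnia, and with antioxidant and protein-repair enzymes. CuO nanoparticles release copper ions as they dissolve, so animals in a particle suspension meet both particles and ions, while CuCl2 supplies dissolved copper from the start. The sources used here pair no probe with a gene: 0 of the 4247 probe IDs or their stems occur in the RefSeq gene table of Daphnia magna, so the probes are given by ID and no role is assigned to them. Each ID stem (the part before the letter P) occurs once in the table, and no member could be checked against a second probe of the same stem.

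Whole daphnids, labelled as 96 hours old when sampled, were exposed for 96 hours, with the medium and its copper renewed after 48 hours. Blank animals received the test medium and algal food alone, CuO animals also received CuO nanoparticles, and CuCl2 animals also received the salt (as CuCl2.2H2O), each copper form at its EC10 for immobilisation, so it is the labelled effect, and not the amount of copper, that the forms have in common. There were 4 replicate exposures in each group, and each replicate was RNA pooled from 40 daphnids, so the spread between replicates is that between pools and not between animals. Every pool was hybridised on 1 two-colour array against a reference mixed in equal parts from the 3 groups, with replicates 1 and 2 of each group in cy3 and replicates 3 and 4 in cy5; the dyes are cyanine fluorophores that mark the 2 RNAs on an array. In whole-animal RNA, a change in the abundance of a cell type and a change in RNA per cell cannot be told apart.

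Values are log ratios of an exposed or blank pool to the reference, and a value of 0 means the level of the reference. Array medians over the 4247 probes lay between -0.06 and 0.04, and none of the values was missing. The authors state neither the direction nor the log base in the sources used here, and both were checked on the members through the mixture. Against a reference of 3 equal parts, a probe's 3 group levels must have a mean linear ratio of 1, which is 0 on the log2 scale. Read as log2 of sample over reference, the members had a median log2 of this mean of -0.04 (range -0.37 to 0.44), with 84 of 102 within 0.2 of 0. With the sign turned the median was 0.76, and with a base of 10 it was 0.84. With the natural log it was 0.06, so base 2 and the natural log were not separated, and the folds given here would all be larger on the latter.

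On every blank array all 102 probes lay below the reference. Their array medians were -1.81, -1.77, -1.81 and -1.71 on blank replicates 1 to 4, 0.48, -0.14, 0.39 and 0.33 on CuO replicates 1 to 4, and 0.55, -0.17, 0.55 and 1.24 on CuCl2 replicates 1 to 4. Averaged over arrays this gave -1.78 ± 0.05 in blanks, 0.27 ± 0.28 in CuO and 0.54 ± 0.58 in CuCl2 (mean ± SD of array medians, n = 4 each). The blanks were thus tightly grouped, and the copper arrays spread widely. The highest single member value was -0.81, -0.55, -0.18 and -0.85 on the blank arrays, and the lowest was -0.68, -2.35, -0.47 and -2.12 on the CuO arrays and -0.04, -2.15, -0.54 and 0.19 on the CuCl2 arrays. The extremes of the blank and copper arrays thus overlapped between probes, though the medians were far apart. Among the copper arrays, CuO replicate 2 and CuCl2 replicate 2 were lowest, with only 34 of 102 probes above the reference on each. CuCl2 replicate 4 was highest, with all 102 above it, and the other 5 copper arrays had between 77 and 100 above. Over the members, the median rise was 1.93 for CuO (3.8-fold; range 1.5 to 4.14) and 2.28 for CuCl2 (4.84-fold; range 1.53 to 4.37), where the medians over all 4247 probes were 0.03 and -0.01. Both rises reached 2 on the log2 scale, or 4-fold, for 45 probes and 3, or 8-fold, for 8 probes.

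For 98 of the 102 probes every one of the 8 copper values exceeded every one of the 4 blank values, against 10.7% of all probes (13.6% for CuO alone and 14.1% for CuCl2 alone), and the lowest copper value then stood 0.01 to 3.11 above the highest blank value. The rule fixed these differences of means, so nothing is read from that count. The 4 exceptions were DM02265P4, DM02902P2, DM10472P3 and DM03350P1, named after their values were seen. Their lowest copper values were -2.35, -1.75, -1.28 and -1.68, against highest blank values of -1.45, -1.21, -1.20 and -1.64. The fit over all probes called 17.4% of them higher in CuO than in blank (limma, Benjamini-Hochberg adjusted p under 0.05) and 21.1% higher in CuCl2; the 96 and 102 members among these calls restate the rule, which used the same values, and are no test of it. Both comparisons use the same 4 blank arrays.

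Measured against this reference, the members differed from one another mainly in their blank level. Their blank means ran from -3.64 to -0.98 (SD over probes 0.56), whereas the means over the 8 copper arrays stayed between -0.04 and 0.85 (SD 0.15). Across the 102 probes the mean rise had r = -0.97 with the blank mean and r = 0.11 with the copper mean, as a description only, since the rise contains both and the probes share arrays. By the arithmetic of the mixture, a transcript absent from blanks and equal in both copper groups would read 0.58 against a mixture of 3 equal parts, whatever its abundance. The mixture thus limits how far the copper means of raised probes can range, and their small SD is not read as a trait of the members. The CuO means had a median of 0.24 and were above the reference for 85 probes, and the CuCl2 means had a median of 0.53 and were above it for all 102. The probes with the largest rises were those farthest below the reference in blank animals. With the copper means so limited, a large rise has to go with a low blank level, and this order is likewise not read as a trait of the members.

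The 8 probes with the largest rise in both forms, ranked by the smaller of their 2 differences, are described in turn. DM11354P1 had log2 ratios of -3.98, -3.65, -3.51 and -3.44 on the 4 blank arrays, 0.85, -0.20, 0.60 and 0.71 on the CuO arrays and 0.55, -0.32, 1.25 and 1.43 on the CuCl2 arrays. It was the most strongly raised member, with a difference of 4.14 in CuO (17.6-fold) and 4.37 in CuCl2 (20.7-fold), and its lowest copper value stood 3.11 above its highest blank value. DM09121P1 had log2 ratios of -3.45, -3.18, -3.49 and -2.78 on the 4 blank arrays, 0.61, -0.24, 0.58 and 0.73 on the CuO arrays and 0.29, -0.64, 1.37 and 1.69 on the CuCl2 arrays. Its groups were also far apart, and it rose 12.5-fold and 15.0-fold; in both probes replicate 2 was the low array of each copper group and CuCl2 replicates 3 and 4 were the high ones. DM05678P4 had log2 ratios of -3.17, -3.07, -3.18 and -2.72 on the 4 blank arrays, 0.52, -0.35, 0.53 and 0.90 on the CuO arrays and 0.11, -1.46, 1.01 and 1.68 on the CuCl2 arrays. Here CuCl2 replicate 2 fell well short of the other copper arrays but remained above every blank, and the rises were 10.8-fold in CuO and 10.3-fold in CuCl2.

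DM01846P3 had log2 ratios of -3.60, -3.38, -3.85 and -2.92 on the 4 blank arrays, 0.60, -0.40, 0.42 and -0.93 on the CuO arrays and 0.83, -0.83, 0.07 and 2.11 on the CuCl2 arrays. This probe rose 10.3-fold in CuO and 15.8-fold in CuCl2, with CuO replicate 4 and CuCl2 replicate 2 low and CuCl2 replicate 4 far above the rest. DM02485P1 had log2 ratios of -2.61, -3.01, -4.10 and -2.83 on the 4 blank arrays, 0.79, -0.13, 0.23 and -0.72 on the CuO arrays and 0.76, -1.38, 0.08 and 2.19 on the CuCl2 arrays. The same arrays were low and high as for DM01846P3, and blank replicate 3 held the lowest single value among all members; the rises were 9.06-fold and 11.7-fold. DM08027P3 had log2 ratios of -1.97, -3.44, -3.04 and -3.30 on the 4 blank arrays, 0.42, -0.14, 0.23 and 0.34 on the CuO arrays and 0.65, -0.24, 0.69 and 1.33 on the CuCl2 arrays. Its CuO values lay close together, its blank replicate 1 was the highest blank, and it rose 8.90-fold and 11.7-fold.

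DM08362P4 had log2 ratios of -2.75, -2.68, -2.12 and -2.93 on the 4 blank arrays, 0.35, -0.10, 1.22 and 0.44 on the CuO arrays and 0.49, 0.20, 0.83 and 1.40 on the CuCl2 arrays. CuCl2 replicate 2 stayed above the reference here, CuO replicate 2 did not, and the probe rose 8.55-fold and 10.2-fold. DM02677P3 had log2 ratios of -2.86, -2.50, -2.46 and -2.36 on the 4 blank arrays, 0.52, 0.05, 0.94 and 0.58 on the CuO arrays and 0.46, 0.08, 1.19 and 1.31 on the CuCl2 arrays. All 8 copper values were above the reference and all blanks at or below -2.36, with rises of 8.40-fold and 9.90-fold. None of these 8 probes passed the test of CuO against CuCl2 (limma adjusted p between 0.839 and 0.975).

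The threshold cut through a continuous range of rises. Just inside it, DM10472P3 had differences of 1.5 in CuO and 2.12 in CuCl2, DM10549P2 had 1.5 and 1.55, and DM14574P1 had 1.51 and 1.99. Just outside it, DM06878P3 had 1.49 and 2.11, DM09916P3 had 1.49 and 1.59, and DM10478P1 had 1.47 and 2.34. All 3 of the outside probes missed through CuO. Probes at the threshold differed widely in how firmly their arrays agreed: DM10549P2 had blank values of -0.98, -1.01, -0.95 and -0.99 and copper values from 0.02 to 1.02, so that its groups were far apart. DM10472P3 had copper values from -1.28 to 2.34 against blank values from -1.72 to -1.20, and its groups overlapped.

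Set directly against each other, the copper forms were not told apart by any member. Calls between the forms numbered 0 of 102 (limma with group and dye orientation, adjusted over 4247 probes), against 0% of all probes, and the smallest adjusted p among the members was 0.839. An unadjusted p under 0.05 was reached by 9 members, all lower in CuO, and by 198 (4.66%) of all probes. In 0 of the 102 probes were the CuO and CuCl2 values free of overlap, against 1.11% of all probes. The difference was bounded loosely: for 64 members its 95% interval stayed inside a 2-fold difference, against 88.2% of all probes, and for 14 inside a 1.5-fold difference, against 63.2%. A p above the threshold therefore does not show that the forms act alike on these probes. The standard error of the difference had a median of 0.26 over the members and ran from 0.15 to 0.76.

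The CuCl2 mean lay above the CuO mean for 93 of the 102 probes, against 46% of all probes. The median difference (CuO minus CuCl2) was -0.29. This lean was not particular to the members. Among the 123 probes that rose by at least 1.0 in both forms without meeting the rule, 103 (83.7%) had it, with a median difference of -0.21. CuCl2 replicate 4 moved with the lean. Without that array the CuCl2 mean was higher for 67 of the 102 members, against 66.7% of the 123 probes and 49.7% of all probes. The members' median difference was then -0.05. By dye orientation the median difference was -0.02 on the cy3 arrays, where 52 of the 102 probes were lower in CuO, and -0.53 on the cy5 arrays, which hold CuCl2 replicate 4 and where 102 of 102 were. Of the 123 lesser-raised probes 74 were lower in CuO on cy3 and 109 on cy5, with median differences of -0.04 and -0.36. Over all 4247 probes the counts were 2084 and 1969. Without CuCl2 replicate 2, the lowest CuCl2 array, the median difference was -0.52, and without CuO replicate 2 it was -0.15. The part of these arrays in the difference was not tested beyond leaving them out.

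The 3 members with the largest shortfall in CuO were DM02265P4, DM07400P1 and DM03350P1, none of which passed the test. DM02265P4 had log2 ratios of -3.02, -2.22, -2.92 and -1.45 on the 4 blank arrays, -0.16, -2.35, 0.79 and -1.63 on the CuO arrays and 1.06, -0.30, -0.03 and 2.29 on the CuCl2 arrays. Its low arrays were CuO replicates 2 and 4, which overlapped the blanks, and its difference between forms was -1.59 (95% interval -3.11 to -0.07, limma adjusted p = 0.839), or -1.14 without CuCl2 replicate 4, -1.15 without CuO replicate 2 and -1.17 without CuO replicate 4. DM07400P1 had log2 ratios of -2.24, -2.61, -2.62 and -2.32 on the 4 blank arrays, 0.39, -0.53, 0.19 and -2.12 on the CuO arrays and 1.39, -0.09, -0.38 and 2.37 on the CuCl2 arrays. Only CuO replicate 4 came near its blanks, and its difference was -1.34 (-2.74 to 0.06, limma adjusted p = 0.839), or -0.78 without that array and -0.73 without CuCl2 replicate 4. DM03350P1 had log2 ratios of -2.56, -1.64, -2.99 and -1.86 on the 4 blank arrays, -0.06, -0.76, -0.08 and -1.68 on the CuO arrays and 1.12, -0.91, 0.19 and 1.94 on the CuCl2 arrays. CuO replicate 4 lay among the blanks, and the difference was -1.23 (-2.51 to 0.05, limma adjusted p = 0.839), or -0.83 without that array and -0.73 without CuCl2 replicate 4.

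At the other end, the members with the highest CuO relative to CuCl2 had differences close to 0. DM13149P1 had 0.12 (95% interval -0.33 to 0.56), DM05678P4 had 0.06 (-0.87 to 1.0), and DM00696P4 had 0.05 (-0.41 to 0.50). DM13149P1 had log2 ratios of -1.26, -0.72, -1.24 and -1.35 on the 4 blank arrays, 1.49, 0.94, 0.82 and 0.39 on the CuO arrays and 0.79, 0.85, 0.44 and 1.09 on the CuCl2 arrays. It had the highest CuO mean of all members (0.91), and all its copper arrays were above the reference. DM00696P4 had log2 ratios of -1.11, -0.95, -1.35 and -1.06 on the 4 blank arrays, 0.71, 0.15, 0.55 and 0.43 on the CuO arrays and 0.80, -0.13, 0.30 and 0.68 on the CuCl2 arrays. Its CuO values all lay within the range of its CuCl2 values.

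The members rose and fell together from one copper array to the next. Relative to the blank arrays of the same dye, their median rise was 2.29, 1.74, 2.11 and 1.92 on CuO replicates 1 to 4 and 2.40, 1.55, 2.26 and 2.94 on CuCl2 replicates 1 to 4. CuO replicate 2 and CuCl2 replicate 2 were the lowest of their groups, with 61 and 53 of the 102 probes at least 1.5 above blank, against 86 to 101 on the other copper arrays. Over the 8 copper arrays, 93 of the 102 probes had a correlation of at least 0.5 with the median of the other members (median r = 0.84, range 0.02 to 0.98), a description over 8 arrays that share 1 reference. The values were not adjusted for form or dye orientation, so differences between forms and between orientations enter this correlation. No share over all probes is given, so the count is not read as particular to the members. Within groups the members spread more than the table as a whole: the residual SD of the fit had a median of 0.41, against 0.23 over all probes, and exceeded that value in 96 of the 102. This held mainly in the copper groups, where the median SD between replicates was 0.42 in CuO and 0.60 in CuCl2 for the members and 0.27 and 0.30 for all probes, with 0.32 and 0.27 in blanks. A residual SD wider than that of the whole table was not particular to the members. Its median was 0.32 in the 123 probes raised by at least 1.0 in both forms without meeting the rule. In the 82 probes lowered by at least 1.0 in both forms it was 0.43. With the members' own array median subtracted, the median SDs were 0.33 in CuO, 0.32 in CuCl2 and 0.32 in blanks, all close to one another.

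A similar order of arrays appeared in the 123 probes that rose by at least 1.0 in both forms without meeting the rule. Their median differences from same-dye blanks were 1.38, 0.96, 1.31 and 1.22 on CuO replicates 1 to 4 and 1.48, 0.90, 1.48 and 1.80 on CuCl2 replicates 1 to 4 (r = 0.98 with the members over 8 arrays, across arrays that share their blanks). The 82 probes lowered by at least 1.0 in both forms had -1.13, -1.14, -1.56 and -0.93 and -1.45, -0.98, -1.49 and -1.66, and followed less closely (r = -0.77). CuCl2 replicate 4 also had the widest ratios over all probes, their SD being 0.71, where the other copper arrays had 0.36 to 0.44, and its part in the members' values was not tested. The median ratio of the CuO rise to the CuCl2 rise was 0.87 in the members and 0.85 in the lesser-raised probes; the difference between these lists was not tested.

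A group of 16 members had a value below -1 on at least 1 copper array, with 10 such values on CuCl2 replicate 2, 7 on CuO replicate 4, 2 on CuO replicate 2 and 0 on the other 5 copper arrays. The 16 were picked after their values were seen and are described without a test. Their medians on CuO replicates 1 to 4 were 0.71, -0.34, 0.23 and -0.91, and on CuCl2 replicates 1 to 4 1.07, -1.26, 0.11 and 1.95. For the other 86 members the same medians were 0.43, -0.11, 0.43 and 0.38 and 0.52, -0.12, 0.60 and 1.14. Their medians were below those of the rest on CuO replicates 2, 3 and 4 and CuCl2 replicates 2 and 3, and above them on CuO replicate 1 and CuCl2 replicates 1 and 4. Low values on CuO replicate 4 and CuCl2 replicate 2 are what picked most of the 16. Their blank medians were also lower, at -2.37, -2.14, -2.64 and -2.08, against -1.67, -1.74, -1.67 and -1.65 in the other 86. Their residual SDs ran from 0.70 to 1.26, with a median of 0.96, against 0.39 in the other 86, a difference that the choice of a low array favours.

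DM08129P1 had log2 ratios of -2.73, -2.55, -2.95 and -2.56 on the 4 blank arrays, 0.79, -0.24, -0.47 and -0.31 on the CuO arrays and 1.63, -2.15, -0.15 and 2.23 on the CuCl2 arrays. It had the largest residual SD of all members (1.26) and the lowest member value on CuCl2 replicate 2, and its CuCl2 arrays spanned from -2.15 to 2.23 on the log2 scale while its blanks stayed between -2.95 and -2.55. DM10472P3, at the threshold of the rule, swung likewise, with 1.42, -0.79, 0.23 and -0.76 on the CuO and 1.30, -1.28, 0.22 and 2.34 on the CuCl2 arrays. In both probes CuCl2 replicates 2 and 4 were the extremes. The smallest residual SDs, 0.20 each, were those of DM02072P3 and DM09208P1; in DM09208P1 the fit had set aside a large difference between dye orientations, and its SDs between replicates were 0.61 in blanks, 0.64 in CuO and 0.78 in CuCl2. DM02072P3 had log2 ratios of -2.0, -1.84, -1.22 and -1.54 on the 4 blank arrays, 0.42, 0.31, 0.54 and 0.33 on the CuO arrays and 0.45, 0.01, 0.62 and 0.73 on the CuCl2 arrays. All 8 of its copper values were above the reference and all 4 blank values at or below -1.22.

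Of the 102 members, 9 had a correlation below 0.5 with the others over the copper arrays, and 0 had one below 0. Among the probes named by rule these were DM13149P1 (r = 0.14), DM01593P4 (r = 0.19) and DM06702P2 (r = 0.08). DM06702P2 had 0.90, 0.41, 0.17 and -0.09 on the CuO and 0.85, 0.26, 0.11 and 0.30 on the CuCl2 arrays, so replicate 1 was high in each form and CuCl2 replicate 4 did not stand out. DM01593P4 had 0.88, 0.64, 0.39 and 0.11 and 0.85, 0.55, 0.25 and 0.75, and replicates 3 and 4 were its low arrays in CuO but only replicate 3 in CuCl2. DM06702P2 and DM01593P4 were also lower on cy5 than on cy3 (shifts of -0.59 and -0.44), which the correlation does not set aside. Within an orientation both moved in the set's direction. Replicate 2 lay below replicate 1 in each form, and CuCl2 replicate 4 lay above CuCl2 replicate 3. DM13149P1 differed from the set between CuCl2 replicates 1 and 2, with 0.79 and 0.85. The low correlations are therefore not read as absence of the set's movement, and the part of the dye shift was not tested.

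The orientation of the dyes does not enter the rule, because each group holds 2 arrays of each. A minority of the members were called for a difference between orientations. Of the 102 probes 21 (20.6%) were called between cy5-labelled and cy3-labelled samples (limma, adjusted p under 0.05), against 32.7% of all probes. Of these members 19 were higher on cy5 (13.8% of all probes were) and 2 lower (18.9%). The median size of the shift was 0.28 over the members and 0.27 over all probes, and the median residual SD was 0.41 and 0.23. The smaller share of calls is therefore not read as a smaller shift. The median shift of cy5 minus cy3 was 0.25 over the members and -0.04 over all probes, and 80 of the 102 were above 0, against 45.7% of all probes. In blanks the members' array medians were -1.81 and -1.77 on cy3 and -1.81 and -1.71 on cy5. In CuO they were 0.48 and -0.14 against 0.39 and 0.33, and in CuCl2 0.55 and -0.17 against 0.55 and 1.24. The lowest copper arrays, replicate 2 of each form, were cy3, and the highest, CuCl2 replicate 4, was cy5. Their part in the shift was not tested. The arrays of each orientation are also different pools, so dye and pools cannot be told apart here. DM09208P1 had log2 ratios of -2.19, -2.59, -1.50 and -1.27 on the 4 blank arrays, -0.16, -0.45, 0.94 and 0.55 on the CuO arrays and 0.02, -0.27, 1.19 and 1.21 on the CuCl2 arrays. Within each group both cy5 replicates (3 and 4) lay above both cy3 replicates (1 and 2), and the shift was 1.13 (SE 0.12, limma adjusted p = 0.000118). DM06830P2 had log2 ratios of -1.65, -2.52, -1.88 and -0.86 on the 4 blank arrays, -0.55, -0.37, 0.76 and 0.48 on the CuO arrays and 0.10, -0.62, 0.99 and 1.53 on the CuCl2 arrays. It shifted by 1.10 (SE 0.23, limma adjusted p = 0.00479), in the same direction in all 3 groups. The largest shifts the other way were -0.59 in DM06702P2 (SE 0.15, limma adjusted p = 0.0131) and -0.44 in DM01593P4 (SE 0.13, limma adjusted p = 0.0224). The call of DM01593P4 was lost without blank replicate 2 or 3, CuO replicate 4 or CuCl2 replicate 3, and over 17 alternatives its limma adjusted p ran from 0.00363 to 0.0543.

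The rise against blank is next described by dye orientation, with 2 arrays of each group in each; these are the values that the rule averaged, so their agreement is no independent check. On the cy3 arrays the members rose by a median of 1.95 in CuO (range 1.23 to 4.14) and 1.95 in CuCl2 (1.16 to 3.93), and on the cy5 arrays by 1.97 in CuO (1.14 to 4.13) and 2.63 in CuCl2 (1.49 to 4.81). Applied to the cy3 arrays alone the rule took 87 probes, and applied to the cy5 arrays alone 120; 74 probes met both, which was 85.1% of the cy3 list and 61.7% of the cy5 list. Of the 102 members, 81 met the rule on cy3 and 94 on cy5, and 1, DM10472P3, met it on neither. Members with a large rise on one orientation had a large rise on the other (r = 0.84, rho = 0.77 across 102 probes, which are not independent).

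The copper effect, taken as the mean of both forms minus blank, was not shown to depend on the orientation. In the fit with an interaction of group and orientation 0 of 102 members were called (limma; 0% of all probes), 5 had an unadjusted p under 0.05 (178 of all probes, 4.19%), and the smallest adjusted p was 0.95. The effect on cy5 minus that on cy3 had a median of 0.40 over the members and -0.01 over all probes, and was above 0 for 90 of the 102, against 48.7% of all probes. Its standard error had a median of 0.43 over the members, about the size of that median, so 0 calls does not show that the copper effect was alike in both orientations. By form, the median rise on cy3 and cy5 was 1.95 and 1.97 in CuO, and 1.95 and 2.63 in CuCl2. Replicate 2 of each copper form (cy3, low) and CuCl2 replicate 4 (cy5, high) enter this difference between orientations. The members moved together over these arrays, so the 90 are not independent. The part of these arrays was not tested. The 2 members with the largest interaction were DM05678P4, at 1.16 (SE 0.60), and DM02485P1, at 1.09 (SE 1.04), both with a limma adjusted p of 0.95.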

How the data were processed

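Total RNA of 12 pools of 40 Daphnia magna was labelled from 100 ng for two-colour Agilent arrays, per the labels' protocols. The authors deposited 1 value table of log ratios with 1 column for each array, 4247 probes and 15 control probes, read here as log2 ratios of sample over reference. The submitters' processing notes name limma without a version; how background, normalization and the choice of rows were handled is not given there. All 15 control probes had opposite mean signs in the dye orientations, so the columns were taken as already turned one way. The tests used limma 3.58.1 (R 4.3.3) with group and dye orientation as terms over 12 arrays (8 residual degrees of freedom), or with their interaction (6), with Benjamini-Hochberg adjustment over 4247 probes at 0.05. The fit was also run on simulated data with noise independent between probes, whereas the members moved together. Nothing about the members is drawn from that run.

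Members were taken by plain group means, and the lists and rules were chosen with earlier results of these data known. Named were the 8 largest rises, the 3 probes on each side of the threshold, the 3 extremes of CuO minus CuCl2 each way, the 2 extremes each of dye shift and residual SD, and the 2 largest interactions; no ID stem was shared and no gene name was available. The number of arrays limits the precision. Alternatives changed array scaling, the fit and the arrays included. Zinc exposures named in the design were not analysed here.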

Additional observations from a re-analysis of the deposited data

Results flagged for a closer look

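Dixon's test for a distant array was made on 78 sets of 4 values and picked out 1, where chance alone picks about 1 in 20. In DM09121P1, CuO replicate 2 read -0.24, and CuO replicates 1, 3 and 4 read between 0.58 and 0.73.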

How the results depend on the processing

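The count of 102 members depended on array scaling: 53 probes met the rule after quantile normalization, all of them among the 102, and 71 with arrays scaled to one median absolute deviation, again all among the 102. With a minimum of 1.0 the rule took 225 probes and with 2.0 it took 45; with the cy3 columns turned it took 2, of which 0 were members. Leaving out 1 replicate gave 90 (without CuO replicate 1) to 117 (without CuO replicate 2). After quantile normalization the members' median rises were 1.53 in CuO and 1.69 in CuCl2, and with each replicate left out they ran from 1.87 to 2.02 and from 2.01 to 2.60; the cause was not tested. The median difference between the forms stayed below 0 in all 19 alternatives run, from -0.53 on the cy5 arrays to -0.02 on the cy3 arrays, and from -0.52 to -0.05 with 1 replicate left out. Chosen after seeing the data, omission of CuCl2 replicates 2 and 4 gave 100 probes and -0.31, and omission of replicate 2 of both copper forms 119 and -0.37. No member was called between the forms in 20 alternatives (lowest limma adjusted p 0.266, without CuCl2 replicate 2), nor for the interaction in 17; uncalled estimates of CuO minus CuCl2 changed sign 26 times over 10 named probes. Dye calls numbered 15 to 30 over 17 alternatives.

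With the replicate number as a block 0 members were called between the forms. Deviations of same-numbered arrays correlated from -0.36 to 0.32, over 0.1 in 4 of 12 pairs, and 1 of 12 arrays correlated best with its own number, so the numbers were not taken to pair the samples. Signal over background was not used here, so probes near the detection limit in blanks were not identified.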
